A study of Mus musculus with 24 samples.

Results

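Blood T cells were compared with blood monocytes in 3 recipient mice by the DNA barcodes that the cells had inherited from barcoded founders. The comparison used 6 of the 24 samples of the study, namely the T cell and monocyte samples of mouse 1, mouse 2 and mouse 3, chosen by cell type and paired by the mouse number. The study sequenced 8 sorted populations per mouse, the others being blood B cells and neutrophils, renal M1 and M2 macrophages, and cardiac Ccr2hi and Ccr2lo macrophages. T cells and monocytes of a mouse carried the same history. Both came from bone marrow HSCs of C57BL/6 donors that were infected in culture with the barcoding lentivirus pBC008, 5 days after plating. GFP+LinSca1+cKit+ cells were sorted 4 days after infection and injected with CD45.2+ LincKit+Sca1- rescue cells, for which the labels give no barcoding. The recipients were CD45.2 male mice aged 5 weeks, irradiated with 9 Gy, and blood was taken 2 months later. The strain label of every sample is C57BL/6J.

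Several features limit the model. Rescue cells and surviving host cells give no barcode reads, so the host's own T cells, which irradiation may spare, were not seen. The numbers of sorted cells and the surface markers of the blood sorts are not given in the labels, and a DNA assay holds no marker expression, so the names of the populations rest on the labels. A founder may carry more than 1 barcode. Reads are PCR copies without molecular identifiers, and a share of reads is relative, so more cells of a clone and fewer cells of the others cannot be told apart.

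T cells develop in the thymus from progenitors that arrive from the bone marrow, and mature T cells can persist and divide in the periphery for long periods. Monocytes are short-lived blood phagocytes that are renewed continuously in the marrow from progenitors related to those of neutrophils. When a founder is barcoded, every descendant keeps its sequence, so the share of a barcode in a sorted population reads the relative output of that founder to that lineage.

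The unit described is a barcode of 52 bases, and its share is its read count as a percent of the reads of the sample. Presence of a barcode means a share of at least 0.01%. A barcode at 0.1% or more in T cells or in monocytes of a mouse was called a clone. There were 120 clones in mouse 1, 94 in mouse 2 and 70 in mouse 3, which are 273 distinct sequences. T cell samples held 9757036, 11087224 and 12675345 reads in mice 1, 2 and 3, and monocyte samples held 11436010, 9657419 and 10257631 reads. A barcode without reads was therefore limited to 2.37e-05% to 3.11e-05% of a sample (3 counts of the total). Wilson 95% intervals of single shares were narrow at this depth (7.31% to 7.34% for a share of 7.32%), and both figures cover counting error only.

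The barcodes that the results turn on are written 5′ to 3′ below, since they are the identity of the founders described. The name gives the mouse and a letter by falling share in T cells. Capitals mark the first 16 bases, the shortest start that tells all 273 clone sequences apart. The set shows, for each mouse, leading T cell barcodes, barcodes at like levels in both populations, and barcodes at the extremes of the T cell to monocyte ratio. The last entries, rec-A and rec-B, were clones in more than 1 mouse and were picked after their values were seen.
m1-A: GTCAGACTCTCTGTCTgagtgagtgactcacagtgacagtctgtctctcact
m1-B: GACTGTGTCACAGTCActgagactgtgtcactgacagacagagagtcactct
m1-F: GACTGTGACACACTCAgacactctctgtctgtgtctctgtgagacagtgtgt
m1-G: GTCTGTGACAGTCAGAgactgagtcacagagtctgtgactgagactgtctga
m1-H: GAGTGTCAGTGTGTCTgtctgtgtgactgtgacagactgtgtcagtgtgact
m1-K: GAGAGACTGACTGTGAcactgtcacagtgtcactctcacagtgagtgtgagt
m2-A: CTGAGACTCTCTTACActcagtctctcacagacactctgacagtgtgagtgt
m2-B: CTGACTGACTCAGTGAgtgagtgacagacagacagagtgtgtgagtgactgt
m2-D: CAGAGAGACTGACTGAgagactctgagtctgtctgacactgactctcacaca
m2-G: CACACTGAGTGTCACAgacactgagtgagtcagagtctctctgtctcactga
m2-I: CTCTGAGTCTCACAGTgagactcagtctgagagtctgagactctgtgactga
m2-J: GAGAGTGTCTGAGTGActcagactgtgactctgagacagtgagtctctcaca
m3-A: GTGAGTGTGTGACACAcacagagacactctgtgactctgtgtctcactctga
m3-B: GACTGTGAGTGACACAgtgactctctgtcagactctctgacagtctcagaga
m3-C: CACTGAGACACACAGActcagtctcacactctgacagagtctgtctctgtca
m3-E: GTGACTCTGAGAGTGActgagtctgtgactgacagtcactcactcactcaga
m3-I: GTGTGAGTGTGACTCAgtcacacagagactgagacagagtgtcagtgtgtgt
m3-J: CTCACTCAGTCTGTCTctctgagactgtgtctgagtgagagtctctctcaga
rec-A: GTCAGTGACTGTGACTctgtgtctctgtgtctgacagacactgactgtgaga
rec-B: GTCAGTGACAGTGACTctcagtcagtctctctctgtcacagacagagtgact
The 273 sequences were far apart from each other. The closest pair differed at 12 of 52 positions, and the median distance to the nearest other clone was 16. G or C alternated with A or T in 251 of them, as in m1-A, and 22 departed from the alternation, among them m2-A.

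Of the T cell and monocyte samples, the T cell sample of mouse 2 stood apart from the others in 1 respect. It held all 17 barcodes that reached 1% or more in T cells of mouse 3, each at 0.897% to 1.39% of its mouse 3 level, with a median of 0.957%. In the other 23 ordered pairs of blood T cell and monocyte samples from different mice the median lay between 0.0311% and 0.186%. The 3 leading T cell barcodes of mouse 3, m3-A, m3-B and m3-C, thereby reached 0.142%, 0.138% and 0.141% of T cell reads in mouse 2 and counted among its clones. The cause was not tested. Together the 17 held 0.851% of the T cell reads of mouse 2. Counts of barcodes present and shared in T cells of mouse 2 are given with and without them, and its class counts with and without the barcodes 100 times as abundant in another mouse.

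**Figure D1:**
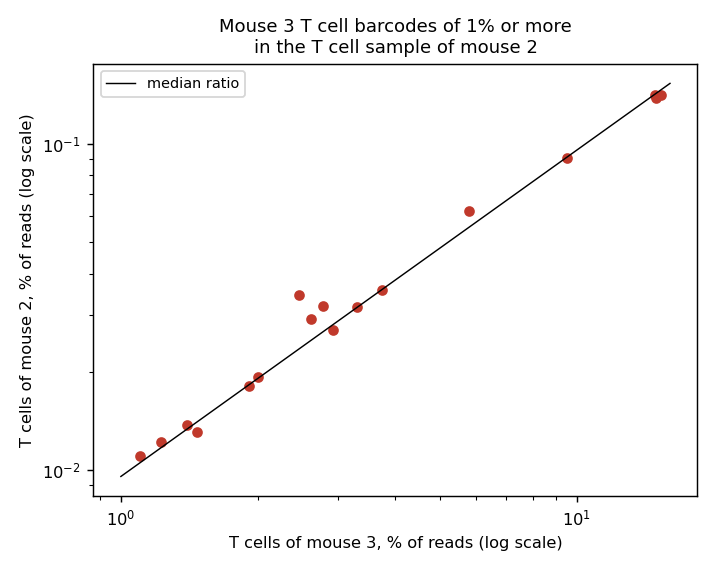
Each point is 1 of the 17 barcodes at 1% or more in T cells of mouse 3, with its percent of T cell reads in mouse 3 on the x axis and in mouse 2 on the y axis (both log scales), and the line is the median ratio. The points follow the line, with m3-A at 15.3% in mouse 3 and 0.142% in mouse 2 at the upper end.

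T cells had a more diverse set of barcodes than monocytes by effective number in mouse 1 and mouse 2, but not in mouse 3. The effective number of barcodes (exp of the Shannon entropy, the number of equally abundant barcodes that would be as diverse) was 72.6, 56.2 and 21.8 in T cells of mice 1, 2 and 3, against 42.4, 30.9 and 23.0 in monocytes. It averaged 50.2 ± 25.9 in T cells and 32.1 ± 9.75 in monocytes (SD, n = 3 each). T cells exceeded monocytes 1.71-fold in mouse 1 and 1.82-fold in mouse 2, and were at 0.948 of monocytes in mouse 3. The geometric mean ratio was 1.43, and the difference was within the spread between mice (two-sided exact permutation test of 3 against 3, p = 0.5, smallest possible p 0.1). That test does not use the pairing by mouse. The paired exact sign-flip over mice gave p = 0.5 as well (smallest possible 0.25).

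The number of barcodes needed to reach a given part of the reads showed the same split between mice. It took 18, 13 and 4 barcodes to reach 50% of T cell reads in mice 1, 2 and 3, and 7, 6 and 4 to reach 50% of monocyte reads. For 90% of reads it took 64, 46 and 21 barcodes in T cells and 42, 26 and 21 in monocytes. Barcodes at 1% or more numbered 34, 31 and 17 in T cells and 19, 18 and 17 in monocytes. Down at 0.01% the order turned, with 137, 143 and 90 barcodes present in T cells and 229, 148 and 134 in monocytes. That ratio averaged 0.730 and was below 1 in 3 of 3 mice (two-sided exact permutation p = 0.3, exact sign-flip over mice p = 0.25, the smallest possible). Between 0.01% and 0.1% there were 44, 72 and 47 barcodes in T cells and 161, 96 and 88 in monocytes. Without the 17 barcodes from mouse 3, T cells of mouse 2 had 126 barcodes present, of which 58 were below 0.1%, and an effective number of 54.2.

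**Figure D2:**
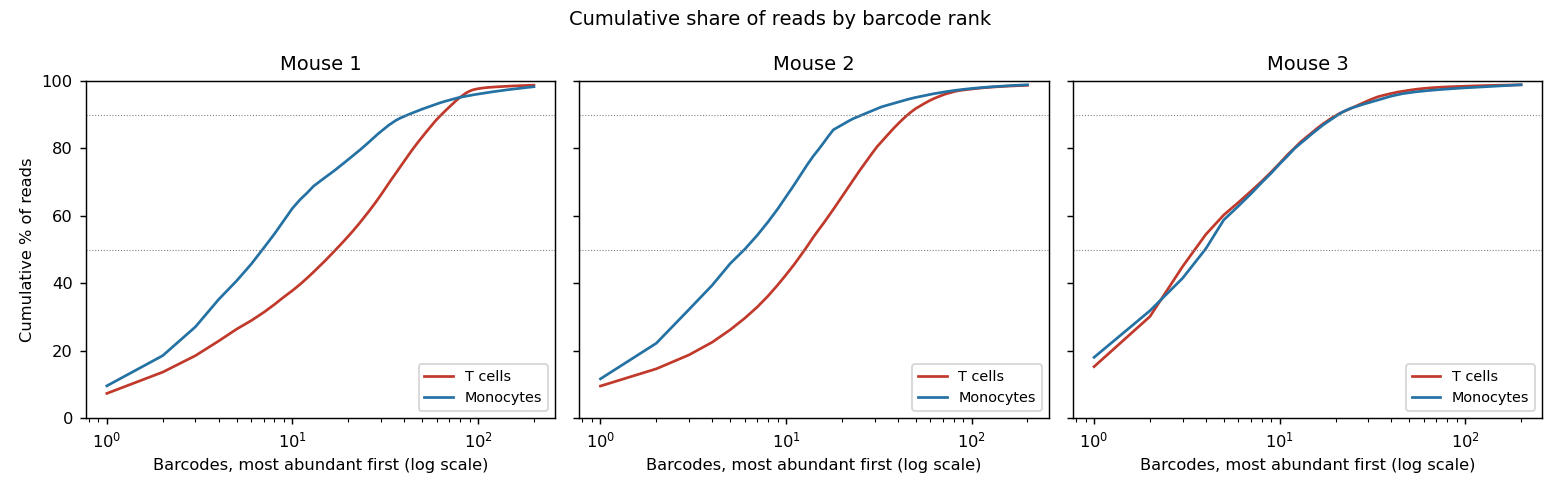
Cumulative percent of reads (y axis) is plotted against the number of barcodes counted, most abundant first (x axis, log scale), for T cells (red) and monocytes (blue) of each mouse, with dotted lines at 50% and 90%. The T cell curve lies to the right of the monocyte curve at 50% in mouse 1 (18 barcodes against 7) and mouse 2 (13 against 6), and the curves meet in mouse 3 (4 against 4).

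The most abundant barcodes took less of the T cells than of the monocytes in the same 2 mice. The 10 leading barcodes held 37.8%, 42.5% and 75.6% of T cell reads in mice 1, 2 and 3, and 62.3%, 65.7% and 75.4% of monocyte reads. The difference, T cells minus monocytes, was -24.4, -23.2 and 0.21 percentage points, with a mean of -15.8 ± 13.9 (SD, n = 3 mice, two-sided exact permutation p = 0.4, exact sign-flip over mice p = 0.5). Without mouse 3 it was -23.8. The first barcode alone held 7.32%, 9.51% and 15.3% of T cells against 9.57%, 11.6% and 18.0% of monocytes. That gap was similar in the 3 mice, at -2.38 ± 0.333 percentage points, yet small beside the spread between mice (exact permutation p = 0.5, exact sign-flip over mice p = 0.25, the smallest possible with 3 mice).

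On the effective number and the leading 3 and 10 barcodes, T cells varied more between animals than monocytes did. The number of barcodes present varied less in T cells (highest 1.59 times the lowest) than in monocytes (1.71 times). These are descriptions of 3 values each that were not tested. The highest effective number was 3.33 times the lowest in T cells and 1.84 times in monocytes. In mouse 3 the 3 leading T cell barcodes, m3-A, m3-B and m3-C, held 44.97% of T cell reads, while the 3 leading T cell barcodes of mice 1 and 2 held 18.5% and 18.8%. For monocytes the corresponding values were 41.5% in mouse 3, 27.1% in mouse 1 and 32.2% in mouse 2.

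Most reads of either population lay in barcodes that were present in the other. Barcodes present in both numbered 110, 88 and 65 in mice 1, 2 and 3. These were 80.3%, 61.5% and 72.2% of the barcodes present in T cells, and 48.0%, 59.5% and 48.5% of those present in monocytes. They held 91.9%, 92.6% and 94.9% of T cell reads and 90.4%, 94.0% and 93.2% of monocyte reads. Without the 17 barcodes from mouse 3, the 88 shared barcodes of mouse 2 were 69.8% of the 126 present in T cells. Abundant barcodes were shared most often. Of barcodes at 1% or more in T cells, 32 of 34, 30 of 31 and 17 of 17 were present in monocytes, and of those at 1% or more in monocytes, 19 of 19, 18 of 18 and 16 of 17 were present in T cells. Of the barcodes between 0.1% and 1% in T cells, 49 of 59, 30 of 40 and 19 of 26 were present in monocytes, and in the opposite direction 37 of 49, 21 of 34 and 19 of 29 of the monocyte barcodes were present in T cells. The mouse 2 count on the T cell side was 30 of 37 without m3-A, m3-B and m3-C.

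Presence did not carry over to level. The overlap of a T cell sample with the monocyte sample of its mouse, obtained by adding up the lower of a barcode's 2 shares (1 for identical samples, 0 for nothing in common), was 0.219, 0.380 and 0.196 in mice 1, 2 and 3, with a mean of 0.265 ± 0.101 (SD, n = 3). Neutrophils overlapped with the same monocytes at 0.888, 0.928 and 0.904. T cells and monocytes from different mice overlapped at 0.00730 to 0.0170 (6 ordered pairs). T cell overlap with monocytes was thus far above that between animals and far below that of the other blood myeloid population. The difference from the neutrophil overlap was -0.642 ± 0.0839, below 0 in 3 of 3 mice (exact sign-flip over mice p = 0.25, the smallest possible).

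A few even barcodes made up much of the overlap. In mouse 1, m1-B at 6.32% of T cells and 3.59% of monocytes contributed 16.4% of it, and the overlap was 0.183 without that barcode. In mouse 2, m2-A, the first barcode of T cells at 9.51% and the third of monocytes at 10.0%, contributed 25.01%, leaving 0.285 without it. In mouse 3, m3-E at 5.79% of T cells and 8.56% of monocytes contributed 29.6%, leaving 0.138. The higher overlap of mouse 2 was therefore still the highest of the 3 without its leading contributor.

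B cells, the other lymphoid population of the blood, were intermediate. B cells overlapped with monocytes at 0.395, 0.408 and 0.338, and the T cell overlap with monocytes was lower in 3 of 3 mice, with differences of -0.176, -0.0282 and -0.143 and a mean of -0.116 ± 0.0777 (exact sign-flip p = 0.25). T cells overlapped with B cells at 0.355, 0.380 and 0.273, which in mouse 2 was the same to 3 digits as with monocytes. The overlap of T cells with monocytes minus that with B cells was -0.0709 ± 0.0682, below 0 in 2 of 3 mice (exact sign-flip p = 0.5). On presence instead of level, the Jaccard index at 0.01% with monocytes was 0.0712 higher on average for T cells than for B cells (exact sign-flip p = 0.25). This index divides the barcodes present in both by those present in either. B cells had more barcodes present, at 475, 296 and 366 against 137, 143 and 90 in T cells. Of the barcodes present in monocytes, 85.2%, 83.1% and 84.3% were present in B cells, against 48.0%, 59.5% and 48.5% in T cells.

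Across clones, the level in T cells said little about the level in monocytes. Spearman's rho between the shares was -0.211 over 120 clones in mouse 1, 0.0201 over 94 in mouse 2 and -0.107 over 70 in mouse 3. These are descriptions without a test, since the clones of a mouse share libraries and a clone had to be abundant in at least 1 of the populations, a selection that can lower a correlation. The fold between T cells and monocytes was taken as log2 of the shares after adding 0.01% to both. Its median size, regardless of direction, was 3.90, 3.77 and 3.94 log2 units in mice 1, 2 and 3. For the same clones the median size between neutrophils and monocytes was 0.58, 0.32 and 0.44 log2 units. Shares in T cells and monocytes were within 4-fold for 19.2%, 21.3% and 17.1% of clones.

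The lists of the 10 leading barcodes had 1, 2 and 2 members in common. The 10 that led T cells held 5.57%, 23.6% and 15.7% of monocyte reads, and the 10 that led monocytes held 13.9%, 20.4% and 12.5% of T cell reads.

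**Figure D3:**
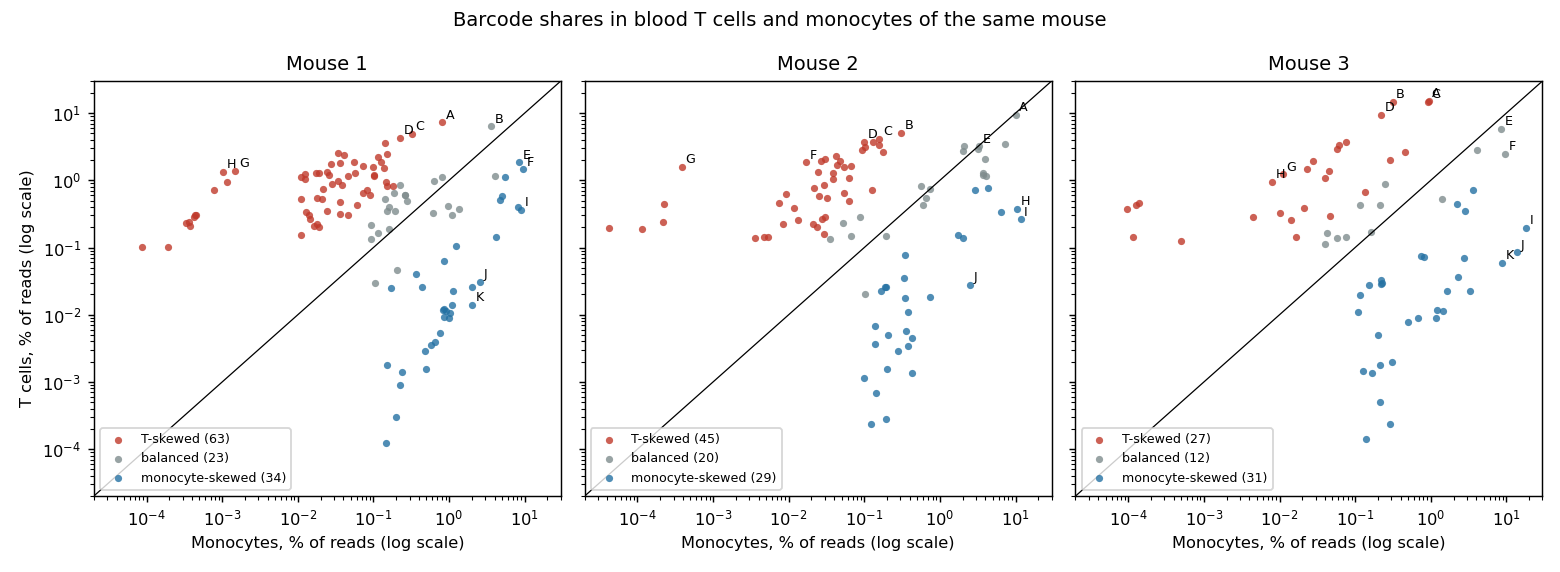
Each point is a clone, with its percent of monocyte reads on the x axis and its percent of T cell reads on the y axis (both log scales), in red for T-skewed, grey for balanced and blue for monocyte-skewed clones, and letters mark the named barcodes. The clones form a cloud on each side of the diagonal, with 63, 45 and 27 T-skewed and 34, 29 and 31 monocyte-skewed clones in mice 1, 2 and 3.

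Clones over 4-fold higher in T cells were called T-skewed, and those over 4-fold higher in monocytes monocyte-skewed. T-skewed clones numbered 63 of 120 in mouse 1 (52.5% of the clones), 45 of 94 in mouse 2 (47.9%) and 27 of 70 in mouse 3 (38.6%), with a mean of 46.3% ± 7.09 (SD, n = 3). Monocyte-skewed clones numbered 34 (28.3%), 29 (30.9%) and 31 (44.3%), with a mean of 34.5% ± 8.58. Both skews occurred in every mouse. The difference, T-skewed minus monocyte-skewed, was 24.2, 17.02 and -5.71 percentage points, so T-skewed clones were the larger class in 2 of 3 mice (mean 11.8 ± 15.6, exact sign-flip p = 0.5). Its mean was 20.6 without mouse 3 and 5.65 without mouse 1. The remaining 23, 20 and 12 clones were balanced. Between 3-fold and 5-fold lay 4, 3 and 4 clones on the T cell side and 6, 5 and 5 on the monocyte side. Over 10-fold, 49, 37 and 22 clones were higher in T cells and 27, 20 and 20 in monocytes. The order of the classes in mouse 3 thus depended on the limit. Without barcodes that were 100 times as abundant in another mouse, mouse 2 had 42 T-skewed clones of 91 (46.2%) and 29 monocyte-skewed (31.9%), and mice 1 and 3 kept their numbers.

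T-skewed clones made up most of the T cells. They held 74.3%, 59.0% and 81.0% of T cell reads in mice 1, 2 and 3, and 4.04%, 2.26% and 3.73% of monocyte reads. Monocyte-skewed clones held 6.88%, 3.05% and 2.37% of T cell reads and 75.9%, 48.0% and 68.5% of monocyte reads. The balanced clones held 16.6%, 34.2% and 14.0% of T cell reads and 15.7%, 46.5% and 24.7% of monocyte reads. Mouse 2 had the largest balanced part in both populations. These sums describe the classes and were not tested, because T cells and monocytes defined the classes.

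The T cell leaders were mostly T-skewed. Of the 10 most abundant T cell barcodes 9, 6 and 8 were T-skewed in mice 1, 2 and 3, and of the 10 most abundant monocyte barcodes 8, 4 and 7 were monocyte-skewed. In mouse 1 the first T cell barcode, m1-A, was at 7.32% of T cells, 0.813% of monocytes, 0.461% of neutrophils and 2.41% of B cells. Barcodes m1-C and m1-D, at 4.88% and 4.33% of T cells, were at 0.324% and 0.225% of monocytes, with B cells in between at 1.32% and 0.751%. Each of these 3 was highest in T cells, next in B cells, and lower in monocytes and neutrophils.

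Mouse 2 had a balanced leader. Barcode m2-A held 9.51% of T cells, 10.0% of monocytes, 10.4% of neutrophils and 5.60% of B cells, and m2-E was as even at 3.21% of T cells and 3.33% of monocytes. The next T cell barcodes were T-skewed. Barcode m2-B held 5.11% of T cells, 0.306% of monocytes and 2.42% of B cells. By contrast, m2-D held 3.76% of T cells while it was at 0.0989% of monocytes, 0.120% of neutrophils and 0.0747% of B cells, so its T cell share stood apart from all 3 other blood populations.

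Mouse 3 had 4 dominant T-skewed barcodes of 2 profiles. Barcodes m3-A and m3-C held 15.3% and 14.8% of T cells, 0.935% and 0.911% of monocytes, 0.974% and 1.02% of neutrophils, and 2.40% and 2.32% of B cells. Their shares were within 1.06-fold of each other in all 8 populations, although the sequences differ at 24 of 52 positions. Barcodes m3-B and m3-D held 14.9% and 9.51% of T cells, but 0.313% and 0.223% of monocytes and 0.123% and 0.119% of B cells. In cardiac Ccr2hi macrophages m3-A and m3-C were at 2.00% and 2.06%, and m3-B and m3-D at 0.0295% and 0.00207%. The T cell lead of mouse 3 thus combined barcodes found at over 2% of B cells with barcodes at 0.313% or less in every other population.

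**Figure D4:**
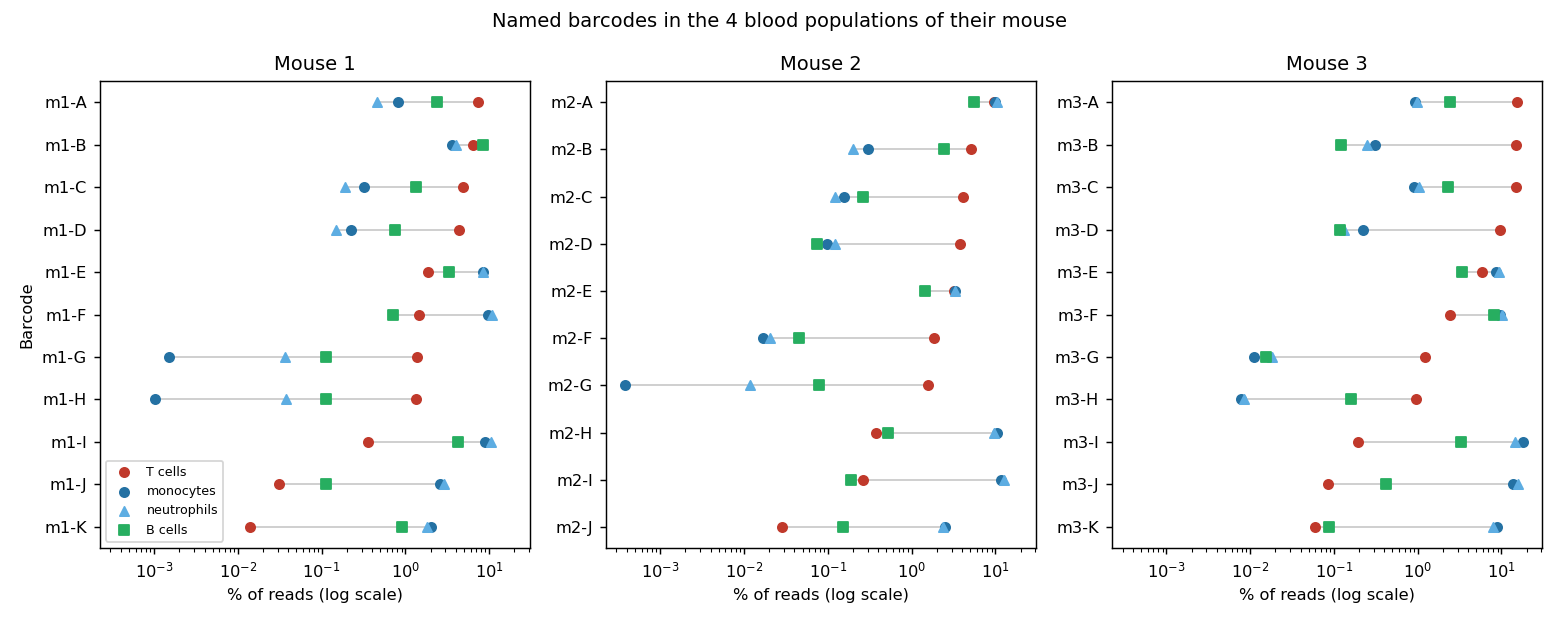
Percent of reads (x axis, log scale) of the 32 named barcodes (rows) in T cells (red circles), monocytes (blue circles), neutrophils (triangles) and B cells (squares) of their mouse. Monocytes and neutrophils lie close together for most barcodes while T cells lie apart, as for m3-B at 14.9% of T cells, 0.313% of monocytes and 0.249% of neutrophils.

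The 2 highest ratios of each mouse belonged to barcodes of about 1% to 2% of T cells that were at 0.0170% of monocytes or less. In mouse 1, m1-G and m1-H held 1.37% and 1.35% of T cells and 0.00149% and 0.00101% of monocytes, or 170 and 116 monocyte reads. Their log2 ratios were 6.91 and 6.95. In mouse 2, m2-G held 1.58% of T cells and 0.000383% of monocytes, or 37 reads, with a log2 ratio of 7.26, the highest of the 3 mice. In mouse 3, m3-G and m3-H held 1.22% and 0.951% of T cells and 0.0110% and 0.00787% of monocytes. Since the added 0.01% exceeds several of these monocyte shares, the ratios are smaller than those of the measured shares without it. These barcodes were picked for their extreme ratios, and each monocyte share comes from 1 sample. The monocyte shares may therefore be low by selection.

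The levels of these clones in neutrophils and B cells differed. Barcode m1-G was at 0.0364% of neutrophils and 0.114% of B cells, m1-H at 0.0374% and 0.113%, and m2-G at 0.0117% and 0.0785%, all above the monocyte shares. In m2-F, at 1.85% of T cells and 0.0170% of monocytes, neutrophils were close to monocytes at 0.0204% and B cells were at 0.0450%. In m3-G neutrophils were at 0.0184% and B cells at 0.0155%, and in m3-H neutrophils were at 0.00842%, near its monocyte share, and B cells at 0.162%. Shares of m1-G and m1-H were within 1.47-fold of each other in 7 of the 8 populations and 2.72-fold apart in renal M1 macrophages (0.0237% and 0.00869%), and the sequences differ at 27 of 52 positions. Elsewhere, m1-G reached 0.237% of B cells in mouse 3, whereas m1-H did not exceed 0.00192% in any sample of another mouse.

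T-skewed clones below the presence threshold in monocytes numbered 12, 11 and 7 in mice 1, 2 and 3. They held 6.15%, 4.39% and 2.76% of T cell reads, the largest being m1-G, m2-G and m3-H. None was without monocyte reads. However, barcodes of 1% or more in T cells of a mouse also had reads in monocytes of the other mice. Of these clones 10, 7 and 5 were present in B cells. In mouse 2 the count was 8 without barcodes 100 times as abundant in another mouse, and the B cell count stayed at 7. T-skewed clones present in no other of the 7 populations numbered 0, 2 and 0, and 0 in each mouse without those barcodes.

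Monocyte-skewed clones mirrored this. The first monocyte barcode of mouse 1, m1-F, was at 1.45% of T cells and 9.57% of monocytes, and m1-I was at 0.362% of T cells and 8.96% of monocytes. In mouse 2, m2-I was at 0.261% of T cells and 11.6% of monocytes, with 0.191% of B cells. In mouse 3, m3-I and m3-J were at 0.195% and 0.0845% of T cells and 18.0% and 13.8% of monocytes, and m3-J had the lowest log2 ratio of the 3 mice, -7.19. Barcode m1-K, at 0.0141% of T cells, 2.00% of monocytes and 0.909% of B cells, had the lowest ratio of mouse 1, -6.38, and m2-J, at 0.0280% of T cells and 2.52% of monocytes, that of mouse 2, -6.06. Monocyte-skewed clones below the presence threshold in T cells numbered 12, 13 and 11, and none was without T cell reads. Barcodes of 1% or more in monocytes of a mouse also had reads in T cells of the other mice.

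The lowest level that a major barcode showed in the other population differed between mice. Among barcodes of 1% or more in T cells, the lowest monocyte share was 0.0750%, 0.0242% and 0.903% of the T cell share in mice 1, 2 and 3 (m1-H, m2-G and m3-G). Among barcodes of 1% or more in monocytes, the lowest T cell share was 0.707%, 1.11% and 0.611% of the monocyte share (m1-K, m2-J and m3-J). Barcodes of 1% or more in T cells also had reads in monocytes of the other mice. Their median levels there were 0.131% and 0.130% of the T cell share for mouse 1. They were 0.0448% and 0.0697% for mouse 2, and 0.0311% and 0.0348% for mouse 3. The values of m1-H and m2-G were below the medians of their mouse, and that of m3-G was above. From monocytes to T cells of other mice the medians were 0.0899% to 0.160%, below the values of m1-K, m2-J and m3-J. The source of these lowest reads was not tested.

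Neutrophils, which took no part in defining the classes, showed the same split from T cells. All 63, 45 and 27 T-skewed clones of mice 1, 2 and 3 were also over 4-fold higher in T cells than in neutrophils. Of the monocyte-skewed clones 31 of 34, 27 of 29 and 25 of 31 were over 4-fold lower in T cells than in neutrophils. The T cell values of this readout are those that defined the classes, so the neutrophil values alone are new. Neutrophils also overlapped with monocytes at 0.888 to 0.928, and the monocyte share helped to define the classes. These counts, and the test of neutrophil reads below, are therefore partly set in advance. Between neutrophils and monocytes themselves 10 of 120 clones (8.33%), 1 of 94 (1.06%) and 0 of 70 (0%) differed by over 4-fold. T-skewed clones held 2.21%, 1.69% and 3.62% of neutrophil reads, against 81.4%, 48.0% and 67.6% for monocyte-skewed clones, a difference of -63.2 ± 16.4 percentage points that was below 0 in 3 of 3 mice (exact sign-flip p = 0.25).

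B cells took from all 3 classes. Balanced clones held the most B cell reads in each mouse, at 28.1%, 38.6% and 30.4%, and 100% of the balanced clones were present in B cells. T-skewed clones held 15.95%, 18.5% and 22.8% of B cell reads in mice 1, 2 and 3, and monocyte-skewed clones 21.8%, 9.504% and 11.7%. The difference was 4.77 ± 9.22 percentage points and positive in 2 of 3 mice (exact sign-flip p = 0.5). Of the T-skewed clones 61 of 63, 40 of 45 and 25 of 27 were present in B cells (96.8%, 88.9% and 92.6%). Of the monocyte-skewed clones 30 of 34, 24 of 29 and 25 of 31 were present (88.2%, 82.8% and 80.6%). The T-skewed share was higher in 3 of 3 mice, by 8.89 ± 2.92 percentage points (exact sign-flip p = 0.25), and in mouse 2 it was 95.2% (40 of 42) without barcodes 100 times as abundant in another mouse. At a presence threshold of 0.1% the difference was 1.67 ± 16.4 percentage points, with T-skewed clones higher in 1 of 3 mice (exact sign-flip p = 1), so it was not kept at that level. The level of T-skewed clones in B cells was mostly below that in T cells, with 59 of 63, 41 of 45 and 23 of 27 higher in T cells. Here too the T cell values are those that defined the class, so this order is partly set in advance.

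Monocyte-skewed clones held most reads of renal M1 macrophages, and neither skewed class held most reads of the other tissue macrophages. In renal M1 macrophages T-skewed clones held 1.18%, 0.653% and 1.44% of reads in mice 1, 2 and 3, against 78.9%, 52.7% and 69.2% for monocyte-skewed clones. That difference was -65.8 ± 12.9 percentage points, close in size to that in neutrophils (exact sign-flip p = 0.25). In renal M2 macrophages T-skewed clones held 7.62%, 10.2% and 8.62% and monocyte-skewed clones 16.9%, 12.6% and 13.3% (difference -5.44 ± 3.50, below 0 in 3 of 3 mice, exact sign-flip p = 0.25). In cardiac Ccr2hi macrophages the values were 9.56%, 9.54% and 14.7% for T-skewed clones and 12.6%, 19.1% and 10.2% for monocyte-skewed clones (difference -2.74 ± 7.01, exact sign-flip p = 0.75). In cardiac Ccr2lo macrophages they were 9.91%, 9.82% and 11.5% for T-skewed clones and 9.33%, 14.8% and 7.31% for monocyte-skewed clones (difference -0.0623 ± 4.63, exact sign-flip p = 1). Balanced clones held 10.9%, 24.3% and 11.1% of M2 reads, 10.5%, 22.6% and 13.1% of Ccr2hi reads, and 8.78%, 18.9% and 9.28% of Ccr2lo reads. Barcodes that were not clones thus held most reads of M2 and Ccr2lo macrophages in each mouse, and of Ccr2hi macrophages in mice 1 and 3. T-skewed clones held more of the reads of M2 and cardiac macrophages than of monocytes or neutrophils in each mouse. Their low monocyte share was set by the class limit, and neutrophils overlapped with monocytes at 0.888 to 0.928. This order is therefore partly set in advance.

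**Figure D5:**
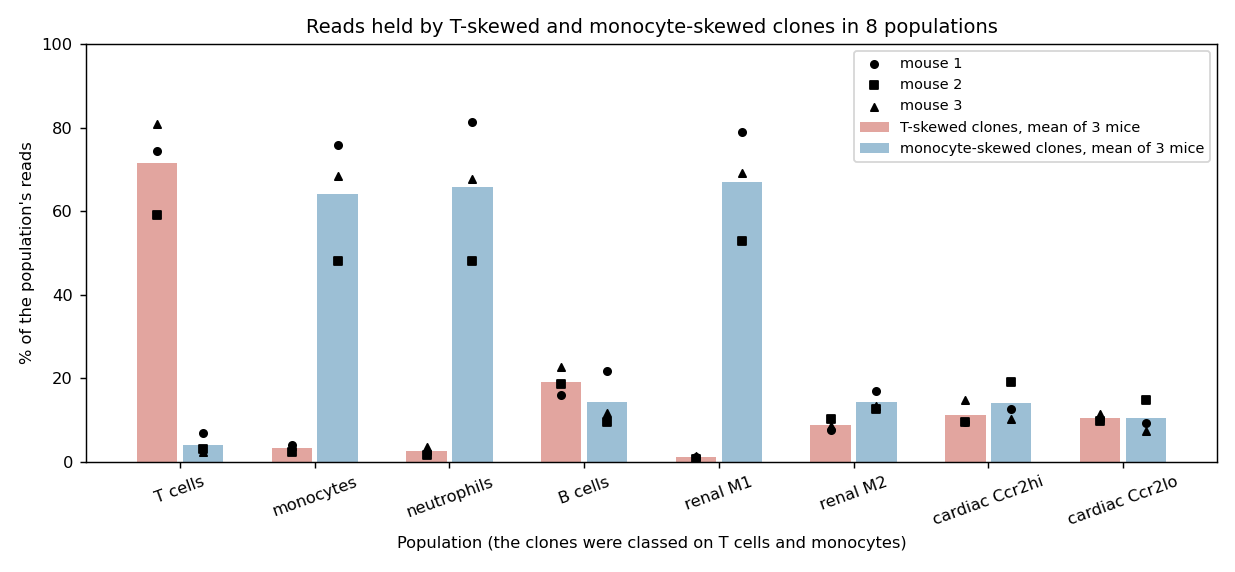
Percent of the reads of each of 8 populations (y axis) held by T-skewed clones (red bars) and monocyte-skewed clones (blue bars), as means of 3 mice with a symbol per mouse. Monocyte-skewed clones hold 48.0% to 81.4% of neutrophils and 52.7% to 78.9% of M1 macrophages, while both classes hold 7.31% to 22.8% of B cells, M2 and cardiac macrophages.

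Single barcodes were also tested across mice with edgeR's quasi-likelihood test, which can address only barcodes with reads in several animals. None of 889 barcodes passed an adjusted p under 0.05 (0%), while 66 had an unadjusted p under 0.05, and DESeq2 called 0 with 16 unadjusted. With the mouse as a replicate block the test called 1 of 2055 barcodes (0.0487%), a trace with 0 reads in T cells of each mouse and 11, 51 and 4 reads in monocytes of mice 1, 2 and 3 (adjusted p = 1.48e-05). This trace differs at 1 base from rec-B, which held 0.0409%, 0.0258% and 0.0294% of T cells and 0.360%, 0.191% and 0.223% of monocytes.

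A few barcodes were clones in more than 1 mouse. Of the 273 sequences 8 were clones in 2 or more mice, and 3 of the 8 are m3-A, m3-B and m3-C in mouse 2. Barcode rec-A held 0.534% and 0.661% of T cells in mice 1 and 3, and 0.0209% and 0.136% of monocytes. The 3 that were clones in all mice were at 0.0110% to 0.0463% of T cells and 0.103% to 0.360% of monocytes, and rec-B was the highest of them in monocytes. Leaving out the 6 barcodes present in monocytes of all mice gave 63 of 116, 45 of 90 and 27 of 67 T-skewed clones and 32, 27 and 28 monocyte-skewed clones.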

How the data were processed

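Genomic DNA of sorted blood T cells and monocytes was sequenced as barcode amplicons, per the labels' protocols after 18 PCR cycles and 9 to 11 further cycles for indexes. Each deposited file holds the raw read count of every distinct barcode sequence of 1 sample, per the file headers. The trimming, filtering and counting of reads are not given in the sources used here. Titles gave the cell type and the mouse, and an equal number was taken as the same mouse. As a check, T cells overlapped with monocytes at a mean of 0.265 for equal numbers and 0.00957 for unequal ones, so the numbers pair the samples. No batch is given in the labels. No pair among the 66 pairs of blood samples agreed within sampling noise (the lowest ratio of chi-square to degrees of freedom was 83.4).

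Counts were divided by sample totals (Python 3.11.15, numpy 2.4.6, pandas 2.3.3, scipy 1.17.1). Classes used a limit of 4-fold with 0.01% added to both shares. Named barcodes were, per mouse, the 4 leading in T cells, the 3 leading in monocytes, the 2 highest and 2 lowest ratios among clones, and the most even of those at 1% or more in both. The members and lists were chosen with earlier results of these data known. Tests over samples were exact permutations of 3 against 3 (smallest p 0.1) or exact sign flips over 3 mice (smallest p 0.25), two-sided. Over the 6 main tests of this kind every Benjamini-Hochberg adjusted p was 0.5. The edgeR fit of single barcodes (version 4.0.16 in R 4.3.3) took raw counts (TMM, filterByExpr, quasi-likelihood test, Benjamini-Hochberg adjusted p under 0.05), with DESeq2 1.42.0 as an alternative. Scripts were tested on simulated data. The p-values rest on these 3 recipients, and the labels do not say whether the recipients received separate cultures. An exact sign flip gives p = 0.25 whenever all 3 mice differ in the same direction, whatever the size or spread. Barcodes are synthetic, and sites of integration were not analysed here.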

Additional observations from a re-analysis of the deposited data

How the results depend on the processing

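Thinning every sample to 6808221 reads, merging barcodes 1 mismatch apart, removing barcodes under 10 reads, removing barcodes 100 times as abundant in another mouse and keeping the alternating pattern left the direction of the diversity, leading barcode, overlap and skew results as reported. Counting barcodes at 0.01% or more turned the diversity ratio to 0.730 (exact permutation p = 0.3), and the Jaccard index turned the difference from the B cell overlap to 0.0712 (exact sign-flip p = 0.25). Leaving out each mouse in turn gave ranges of 1.27 to 1.77 for the diversity ratio, -23.8 to -11.5 percentage points for the 10 leading barcodes, -0.689 to -0.608 and -0.160 to -0.0856 for the overlap differences from neutrophils and B cells, 5.65 to 20.6 for T-skewed minus monocyte-skewed clones, and 7.36 to 10.3 for presence in B cells. The last was 1.08 at a presence threshold of 0.001% (exact sign-flip p = 1). With the replicate block the paired tests gave p = 0.5 by exact sign flips for the diversity ratio of 1.43 and for the leading barcode difference of -15.8, and changed neither call. edgeR called 1 barcode with the replicate block, 1 after merging (higher in T cells, with 4, 149 and 12 T cell reads and 2, 2 and 13 monocyte reads, adjusted p = 0.0353), and 0 with library totals, other filters, DESeq2 or any mouse left out. T-skewed and monocyte-skewed clones averaged 37.2% and 24.1% at a 10-fold limit, and 31.4% and 20.2% with 0.1% added. Removing barcodes present in monocytes of all mice, chosen after seeing the data, moved the skew difference to 14.4. Removing the 17 mouse 3 barcodes from T cells of mouse 2, likewise chosen after seeing the data, kept every direction, with a diversity ratio of 1.42 and a skew difference of 10.9. The cause of these changes was not tested. With 3 mice no test over mice could pass 0.05, so these p-values say nothing about stability.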
